A study of Homo sapiens with 9 samples.

Results

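Human THP-1 cells exposed for 48 h to lupeol at 80 µmol/L were compared with THP-1 cells given the solvent alone, over all expressed genes. The members were chosen by the sample labels and the headings of the count columns, and they are 6 of the 9 libraries of the series, 3 treated with lupeol 80 and 3 controls. The other 3 libraries, from cells given lupeol at 50 µmol/L for the same time, entered the model and are described only where named. THP-1 is an established line from an acute monocytic leukaemia, grown here in suspension in RPMI-1640 with fetal bovine serum, and all 9 libraries came from this 1 line. Total RNA was isolated with Trizol and an extraction kit and made into Illumina libraries, and reads were counted per gene. Whether libraries sharing a treatment stem from independent cultures is not stated, and the tests therefore rest on a library-to-library spread that could be technical. The labels do not name the solvent, and with a single line and a single time the values describe these cells at this time.

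Lupeol is a plant triterpenoid of the lupane type, related in its ring skeleton to sterols, and is studied for effects on inflammation and on the growth of tumour cells. THP-1 cells are monocyte-like and keep the machinery of such cells for inflammatory signalling, interferon responses and antigen presentation. In that machinery NF-kB and the MAP kinases switch on chemokine and immediate-early genes, while interferon-responsive factors switch on the immunoproteasome, which cuts proteins into peptides, and the TAP transporter, which moves those peptides into the endoplasmic reticulum for loading onto MHC class I.

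The 6 libraries held between 26134744 and 38430299 counted reads and between 23950 and 26285 genes with at least 1 read. Lupeol 80 replicate 1 was the deepest of them. A pair of control columns share 1 heading, so they are called control A and control B by their order in the table, beside control 1, and the replicate numbers of the treated libraries only name them. Control 1 and control A were the closest pair of controls, with a chi-square per degree of freedom of 5.39 between their counts over genes with at least 20 reads in the pair, which is above the value of 1 that sampling noise alone gives. Control B stood apart at 22.7 from control 1 and 27.97 from control A, and was nearer than that to lupeol 50 replicate 1, at 8.33, lupeol 50 replicate 3, at 19.2, and lupeol 80 replicate 2, at 19.7. The lupeol 80 libraries were 29.6 to 65.95 apart from each other, and replicate 2 was also nearer to control 1, at 29.1, than to either of the other lupeol 80 libraries. For the gene lists below, the range of a median is its range as each of the 6 libraries was left out in turn, and in 24 of 48 lists the sign of the median changed in that way. The line's markers fitted its label in all 6 libraries. The 14 monocytic leukaemia markers summed to 2313 to 2536 CPM, counts scaled to a common library size, in the controls and 1882 to 2082 CPM after lupeol 80, with none at 0 in every library. T cell, erythroid, epithelial and fibroblast marker lists summed to at most 1.06 CPM in any library, with CD3E, HBB, EPCAM and COL3A1 at 0 in all 6. The 5 B cell markers summed to 44.8 to 53.5 CPM in the controls and 20.7 to 37.4 CPM after lupeol 80, nearly all of it from PAX5, with MS4A1 at 0 in all 6.

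Lupeol 80 changed 201 of 17568 tested genes, which is 1.14% of them, at an adjusted p under 0.05 (edgeR quasi-likelihood F test over all 9 libraries, Benjamini-Hochberg). Of these, 51 rose, 0.29% of the genes tested, and 150 fell, 0.854% of them. Changes were modest in size. Only 41 called genes differed by at least 2-fold, 15 upwards and 26 downwards, and the smallest absolute log2 fold change called was 0.45. All 201 genes had their 3 lupeol 80 values wholly on one side of the 3 control values, as had 4213 tested genes, or 24.0% of them, called or not. The smallest adjusted p was 0.0122, so calls lay close to the threshold, while 3431 genes, or 19.5% of those tested, had an unadjusted p under 0.05, of which 1553 were higher and 1878 lower. The number of calls depended on the controls. Without control 1 the test called 0 genes, with 2251 at an unadjusted p under 0.05, while DESeq2 called 166 and limma-voom 0. Without control A it called 1 gene, with 2210 at an unadjusted p under 0.05, DESeq2 calling 166 and limma-voom 1, whereas without control B it called 197. Leaving out lupeol 80 replicate 1, 2 or 3 gave 165, 386 or 43 calls, and leaving out lupeol 50 replicate 3, which enters only the estimate of spread, gave 43. All 201 genes kept the sign of their fold change in each of these fits.

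**Figure D1:**
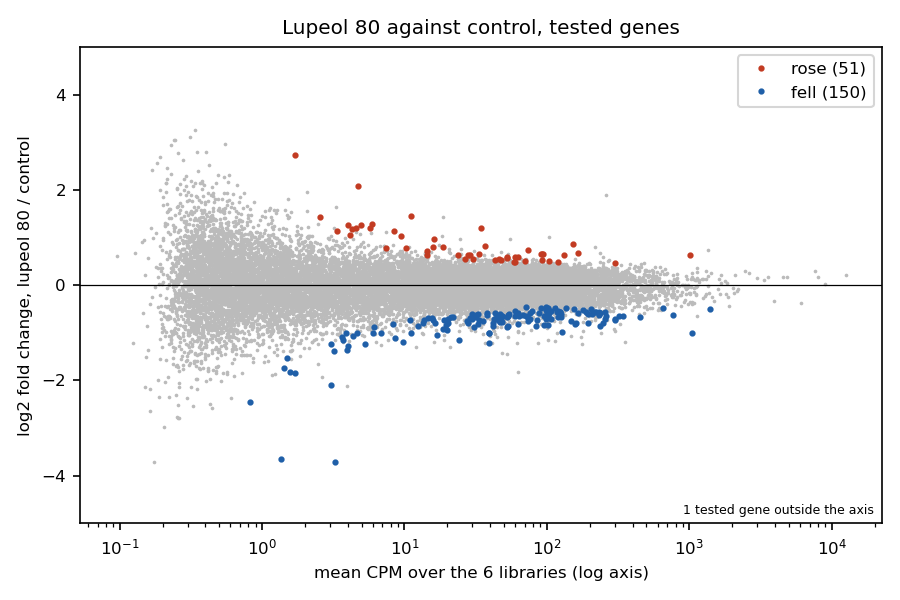
Each point is 1 of the 17568 tested genes, with its mean CPM over the 6 libraries on a log axis and its log2 fold change of lupeol 80 over control. The 51 genes that rose are red and the 150 that fell are blue, and 1 tested gene lies outside the axis.

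The genes that rose and those that fell differed in base composition. Their transcripts had a median GC content of 40.2% for the genes that rose and 58.4% for those that fell, beside 48.5% for all tested genes, over the 49 of 51, 148 of 150 and 17173 genes with a value in GENCODE 29. When tested genes were ranked by GC and cut into deciles, the lowest 3 deciles held 35 of the genes that rose and 2 of those that fell. The highest 3 deciles held 3 of the genes that rose and 120 of those that fell. The tested genes as a whole followed the same gradient, since their median log2 fold change ran from 0.26 in the lowest decile to -0.25 in the highest. The gradient differed among libraries. The gap between the lowest and the highest decile in the median deviation from the control mean was 0.84 on the log2 scale in lupeol 80 replicate 1, 0.19 in replicate 2 and 0.39 in replicate 3. It was -0.06, -0.10 and 0.15 in controls 1, A and B. Median gene length was 5484 bases for genes that rose, 4244.5 bases for genes that fell and 4512.5 bases for all tested. With the GC trend of each library removed, 20 genes were called, 6 that rose and 14 that fell, 0.114% of those tested and all of them among the 201. All 201 kept their direction in that fit, and 200 had an unadjusted p under 0.05. Whether the gradient arose in the cells or in library preparation was not tested, so each gene named below is given with its adjusted p from both fits where it passed both.

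**Figure D2:**
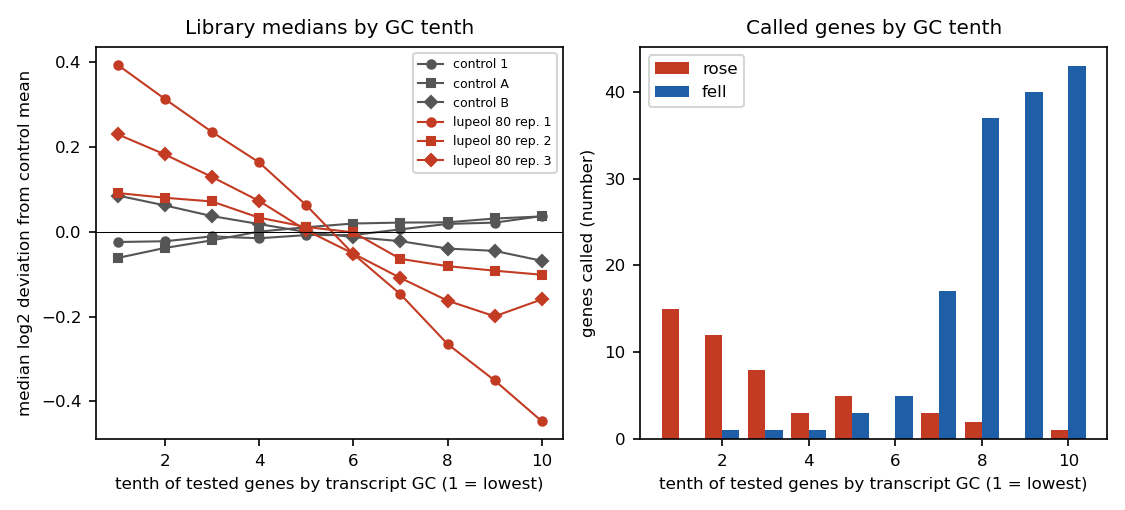
The left panel gives, for deciles of the tested genes ordered by transcript GC, the median log2 deviation from the control mean in each library, with 1 line per library. The right panel counts called genes per decile, and lupeol 80 replicate 1 has the steepest line while 43 of the genes that fell lie in the highest decile.

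Among the 51 genes that rose were inflammatory and stress-inducible genes. CXCL2, a chemokine that attracts neutrophils, stood at 2.43, 1.69 and 1.23 CPM in controls 1, A and B and at 6.03, 10.5 and 6.29 CPM in lupeol 80 replicates 1, 2 and 3. That is a log2 fold change of 2.09 with a standard error of 0.44 and an edgeR adjusted p of 0.0463. All 3 treated libraries lay above all 3 controls, as in every called gene that rose. Replicate 2 was the highest. CXCL2 averaged under 5 CPM over the 6 libraries and is named as a called list member. Of the 16 tested CXC and CC chemokines CXCL2 alone rose and none fell, and 10 lay below control, beside 48.9% of all tested genes. The list's median log2 fold change was -0.10. The median's range was -0.25 to 0.47, and it turned positive without lupeol 80 replicate 1, at 0.13, without replicate 3, at 0.07, and without control B, at 0.47.

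PTGS2, the inducible cyclooxygenase that makes prostaglandin precursors, was at 5.399, 4.97 and 5.42 CPM in the controls and 10.1, 13.5 and 11.4 CPM after lupeol 80. Its log2 fold change was 1.15 ± 0.18 (SE; edgeR adjusted p = 0.0172), from controls that lay within 0.5 CPM of each other. PTGS2 was the 1 called gene of 12 prostanoid and leukotriene synthesis genes, 8 of which lay above control and 4 below. Their median was 0.13 (range 0.08 to 0.17). DUSP1, a phosphatase that switches off MAP kinases, was at 58.3, 62.6 and 45.4 CPM in the controls and 73.4, 112 and 90.9 CPM after lupeol 80. It rose by 0.73 ± 0.16 on the log2 scale (edgeR adjusted p = 0.0416, and 0.0411 with the GC trend removed). Of 19 tested MAPK feedback genes DUSP1 alone was called and 16 lay above control, beside 8972 of all 17568 tested genes. The list's median log2 fold change was 0.25, against 0.01 for all tested genes. In lupeol 80 replicate 1, however, the median of that list lay below the control mean, at -0.13. The median's range was 0.11 to 0.41, the lowest without replicate 2 and the highest without control B, and it was 0.12 without control A and 0.16 without replicate 3.

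NR4A2, an immediate-early orphan nuclear receptor, was at 27.6, 22.998 and 12.4 CPM in the controls and 42.5, 59.03 and 43.9 CPM after lupeol 80. The controls spread more than 2-fold and lay below every treated library, as in every called gene that rose (log2 fold change 1.21 ± 0.25 SE, edgeR adjusted p = 0.0455). Of 19 tested NR4A and nuclear receptor genes NR4A2 alone was called, and 13 lay below control, beside 48.9% of all tested genes. That list's median was -0.29 (range -0.35 to -0.17), or -0.08 with the GC trend removed. KLF6, an inducible zinc-finger factor, was at 134, 115 and 137 CPM in the controls and 154, 259.8 and 199 CPM after lupeol 80, a rise of 0.67 ± 0.15 on the log2 scale (edgeR adjusted p = 0.0453). Replicate 1 was the lowest treated library for KLF6, as for CXCL2, PTGS2, DUSP1, NR4A2 and CCN2. The 26 tested AP-1 and immediate-early genes did not move together. KLF6 rose, FOSL2, a FOS-family AP-1 subunit, fell by 0.48 ± 0.11 on the log2 scale, and the list's median was 0.03 (range -0.12 to 0.21, negative without replicate 2).

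ANXA1, annexin A1, a phospholipid-binding protein that limits leukocyte recruitment, was at 108, 98.8 and 118 CPM in the controls and 172, 197 and 223 CPM after lupeol 80. It had the smallest adjusted p of the rising genes that averaged 5 CPM or more (log2 fold change 0.86 ± 0.12 SE, edgeR adjusted p = 0.0122, and 0.0455 with the GC trend removed). ANXA1 was the 1 called gene of 16 annexin and S100 genes, 8 of which lay above control and 8 below. Their median was 0.01 (range -0.05 to 0.01, negative without replicate 3 or control 1). CCN2, a secreted matricellular protein and a classical YAP target, was at 3.498, 3.9997 and 2.92 CPM in the controls and 7.49, 8.88 and 7.603 CPM after lupeol 80. Control and treated libraries were well apart, with a log2 fold change of 1.20 ± 0.23 SE (edgeR adjusted p = 0.0234, and 0.0395 with the GC trend removed). CLU, clusterin, an extracellular chaperone, was at 5.399, 7.34 and 5.83 CPM in the controls and 12.3, 11.2 and 14.4 CPM after lupeol 80 (log2 fold change 1.02 ± 0.20 SE, edgeR adjusted p = 0.0274, and 0.0424 with the GC trend removed). DSG2, a desmosomal cadherin, was at 13.002, 10.8 and 10.8 CPM and 21.4, 16.9 and 22.3 CPM, and rose by 0.81 ± 0.16 on the log2 scale (edgeR adjusted p = 0.0283). Of the 32 tested adhesion, matrix and YAP target genes, CCN2 and DSG2 rose and the collagen chain gene COL9A2 and SMAD7, an inhibitor of TGF-beta signalling, fell. The median of that list was -0.06 (range -0.11 to 0.01, positive without replicate 3 or control A).

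GNG5, a gamma subunit of heterotrimeric G proteins, rose from 21.3, 21.3 and 22.5 CPM in the controls to 29.9, 32.7 and 38.7 CPM after lupeol 80 (log2 fold change 0.64 ± 0.14 SE, edgeR adjusted p = 0.0368, and 0.0395 with the GC trend removed). Its annotated span overlaps that of RPF1 on the other strand, and whether counting used the strand was not given in the sources used here. XACT, a long noncoding RNA of the X chromosome known from human pluripotent cells, was at 7.07, 6.21 and 4.41 CPM in the controls and 17.95, 16.4 and 14.2 CPM after lupeol 80. At a log2 fold change of 1.46 ± 0.25 SE (edgeR adjusted p = 0.0172) it was the largest rise among called genes averaging 5 CPM or more. CRIP2, a LIM-domain protein, lies outside the naming rule, having a mean under 5 CPM and a place in none of the gene lists. It is named here after its values were seen, because it passed both fits. It was at 0.342, 0.483 and 0.486 CPM in the controls and 2.11, 2.61 and 4.102 CPM after lupeol 80, with a log2 fold change of 2.73 ± 0.41 SE (edgeR adjusted p = 0.0122, and 0.0164 with the GC trend removed).

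Genes of redox metabolism and detoxification moved both ways. NQO1, a quinone reductase and a textbook target of NRF2, was at 80.8, 80.9 and 56.2 CPM in the controls and 114, 94.6 and 134 CPM after lupeol 80, with control B below the other controls. It rose by 0.65 ± 0.15 on the log2 scale (edgeR adjusted p = 0.0455). Of 22 tested NRF2 targets NQO1 alone was called, 9 lay wholly above the controls and none wholly below, and the median log2 fold change was 0.20 (range 0.13 to 0.29, the lowest without control B). Across all tested genes 11% lay wholly above the controls and 12.9% wholly below. MGST1, a membrane-bound glutathione transferase, rose from 99.2, 103 and 109.7 CPM to 165, 134 and 183 CPM (log2 fold change 0.63 ± 0.13 SE, edgeR adjusted p = 0.0289). PRDX5, a peroxiredoxin, fell from 52.4, 57.3 and 49.7 CPM to 25.4, 31.1 and 35.3 CPM (log2 fold change -0.80 ± 0.15 SE, edgeR adjusted p = 0.0234). These 2 were the called members among 27 peroxiredoxin and glutathione enzyme genes, whose median was 0.06 (range -0.03 to 0.10, negative without replicate 3 and just below 0 without control 1). GLO1, the glyoxalase that clears methylglyoxal, was the most abundant gene that rose, at 828, 803 and 748 CPM in the controls and 1468, 972 and 1226 CPM after lupeol 80 (log2 fold change 0.62 ± 0.14 SE, edgeR adjusted p = 0.0372). TFRC, the transferrin receptor through which cells take up iron, was at 262, 248 and 246 CPM and 361, 337 and 348 CPM, with narrow spreads in both groups (log2 fold change 0.47 ± 0.10 SE, edgeR adjusted p = 0.0406). It was the 1 called gene among 17 iron genes.

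**Figure D3:**
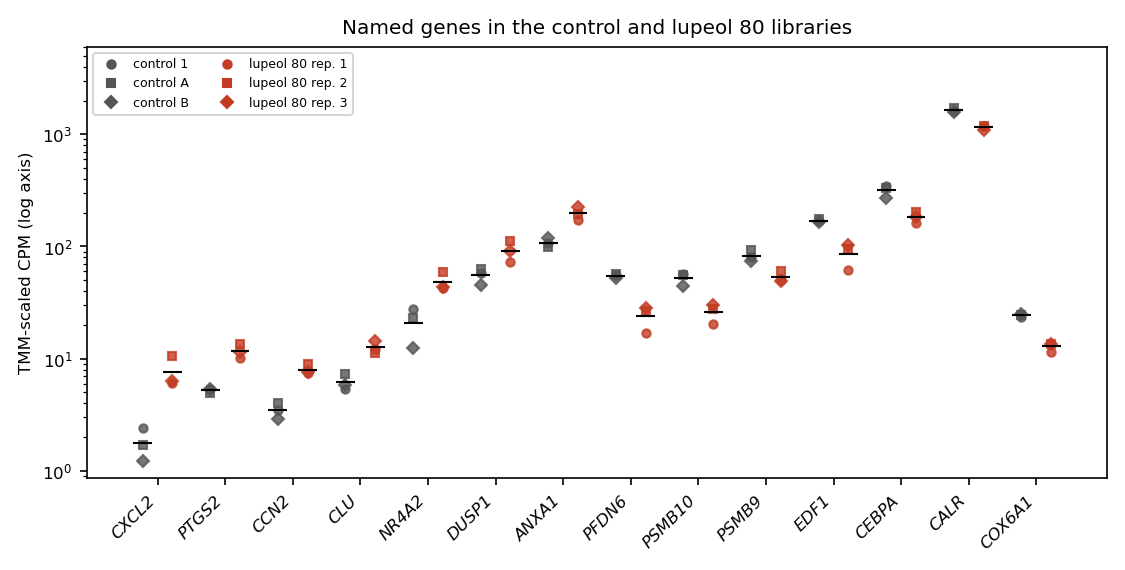
TMM-scaled CPM on a log axis for 14 named genes, with controls in grey, lupeol 80 in red, a marker shape per library and a bar at each group mean. In each of the 14 genes, as in all 201 called genes, the 3 lupeol 80 libraries lie on one side of the 3 controls. An example is COX6A1, at 23.5, 24.6 and 25.3 CPM in the controls against 11.5, 13.6 and 13.7 CPM.

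Some genes that supply peptides to MHC class I fell. Of 20 tested immunoproteasome and peptide-loading genes 6 fell and none rose, 17 lay below control and 13 wholly below all 3 controls, and the median log2 fold change was -0.36 (range -0.43 to -0.31). Over all tested genes 0.854% fell, 48.9% lay below control and 12.9% wholly below. With the GC trend removed the list's median was -0.24 and 2 members passed, PSMB10 and PSMB9. The median lay below the control mean in all 3 treated libraries, at -0.38, -0.40 and -0.33.

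PSMB10, a catalytic subunit specific to the immunoproteasome, was at 57.2, 55.5 and 44.9 CPM in the controls and 20.2, 27.9 and 30.3 CPM after lupeol 80. It fell by 1.01 ± 0.16 on the log2 scale (edgeR adjusted p = 0.0172, and 0.0395 with the GC trend removed). PSMB9, another catalytic subunit of it, was at 79.8, 93.1 and 74.2 CPM in the controls and 50.7, 59.98 and 49.3 CPM after lupeol 80 (log2 fold change -0.63 ± 0.12 SE, edgeR adjusted p = 0.0274, and 0.0424 with the GC trend removed). The lowest control lay above the highest treated library for both, as for every called gene that fell. TAP1, a subunit of the peptide transporter, was at 235, 263 and 237.5 CPM in the controls and 140.4, 184 and 98.9 CPM after lupeol 80, with replicate 3 the lowest (log2 fold change -0.80 ± 0.18 SE, edgeR adjusted p = 0.0461). TAP1 and PSMB9 lie head to head on opposite strands and their annotated spans overlap, so reads could be shared between them where strand was not used in counting. TAPBP, tapasin, which holds MHC class I beside the transporter, was at 414, 406 and 303 CPM and 258, 254 and 168 CPM (log2 fold change -0.72 ± 0.17 SE, edgeR adjusted p = 0.0463). CALR, calreticulin, a chaperone of the endoplasmic reticulum that also serves this loading step, was the most abundant called gene, at 1601, 1731 and 1593 CPM in the controls and 1194, 1189.9 and 1087.5 CPM after lupeol 80 (log2 fold change -0.50 ± 0.11 SE, edgeR adjusted p = 0.0351). HLA-F, a nonclassical class I gene, was at 5.97, 5.79 and 5.34 CPM and 2.57, 2.38 and 2.05 CPM (log2 fold change -1.28 ± 0.26 SE, edgeR adjusted p = 0.0274). Class I genes share long near-identical stretches, and the handling of reads with several matches was not given in the sources used here, which leaves the HLA-F value uncertain. Of the 37 constitutive proteasome genes edgeR called 0, with 6 at an unadjusted p under 0.05, beside 19.5% of all tested genes. DESeq2 and limma-voom called 0 of the 37 as well. Their 2 most abundant members, PSMD2 and PSMB4, had log2 fold changes of -0.16 and -0.11. The difference between the constitutive and the inducible subunits was not tested.

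The interferon response list gave the lowest median of all lists and only 1 call. All 37 tested members lay below control, beside 48.9% of all tested genes, with a median log2 fold change of -0.78, or -0.84 with the GC trend removed. Members ranged from -1.41 to -0.11. The libraries differed widely, with medians of -0.29, -0.57 and -1.77 in lupeol 80 replicates 1, 2 and 3, and of 0.05, 0.40 and -0.40 in controls 1, A and B. Lupeol 80 replicate 3 was the lowest of the 6 libraries in 35 of the 37 genes and control A the highest in 36. Without replicate 3 the median was -0.55 and without control A it was -0.55, and all 37 stayed below control in both. BST2, tetherin, which holds budding virus at the cell surface, was the 1 member that passed, at 316, 378 and 263 CPM in the controls and 205, 203 and 201 CPM after lupeol 80 (log2 fold change -0.65 ± 0.13 SE, edgeR adjusted p = 0.0274). Its 3 treated values lay within 4 CPM of each other. With the GC trend removed BST2 did not pass (log2 fold change -0.44, edgeR adjusted p = 0.170), and 0 of the 37 were called. Of the 15 tested MHC class II genes edgeR called none, nor did DESeq2 or limma-voom. In edgeR 4 of the 15 had an unadjusted p under 0.05, beside 19.5% of all tested genes. CD74, the invariant chain, was at 209.7 ± 34.1 CPM in the controls and 161 ± 14.3 CPM after lupeol 80 (mean ± SD, n = 3 each).

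Genes of NF-kB signalling stood mostly lower. RELB, the subunit of the noncanonical NF-kB pathway, was at 80.4, 84.3 and 73.5 CPM in the controls and 41.5, 60.4 and 33.8 CPM after lupeol 80 (log2 fold change -0.81 ± 0.17 SE, edgeR adjusted p = 0.0403). It was the 1 called gene of 21 NF-kB subunits and inhibitors, of which 17 lay below control and 10 wholly below, with a median of -0.27 (range -0.40 to -0.16, the lowest without replicate 2). Over all tested genes 48.9% lay below control and 12.9% wholly below. Replicate 3 was the lowest of the 6 libraries for 16 of the 21, and the list's median without that library was -0.16. The number below control was 13 without replicate 3, 14 without control B and 17 to 19 without any other 1 of the 6. With the GC trend removed the list's median was -0.18 and RELB did not pass (edgeR adjusted p = 0.202). CXCL2, whose promoter is a textbook NF-kB target, rose in the same libraries.

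**Figure D4:**
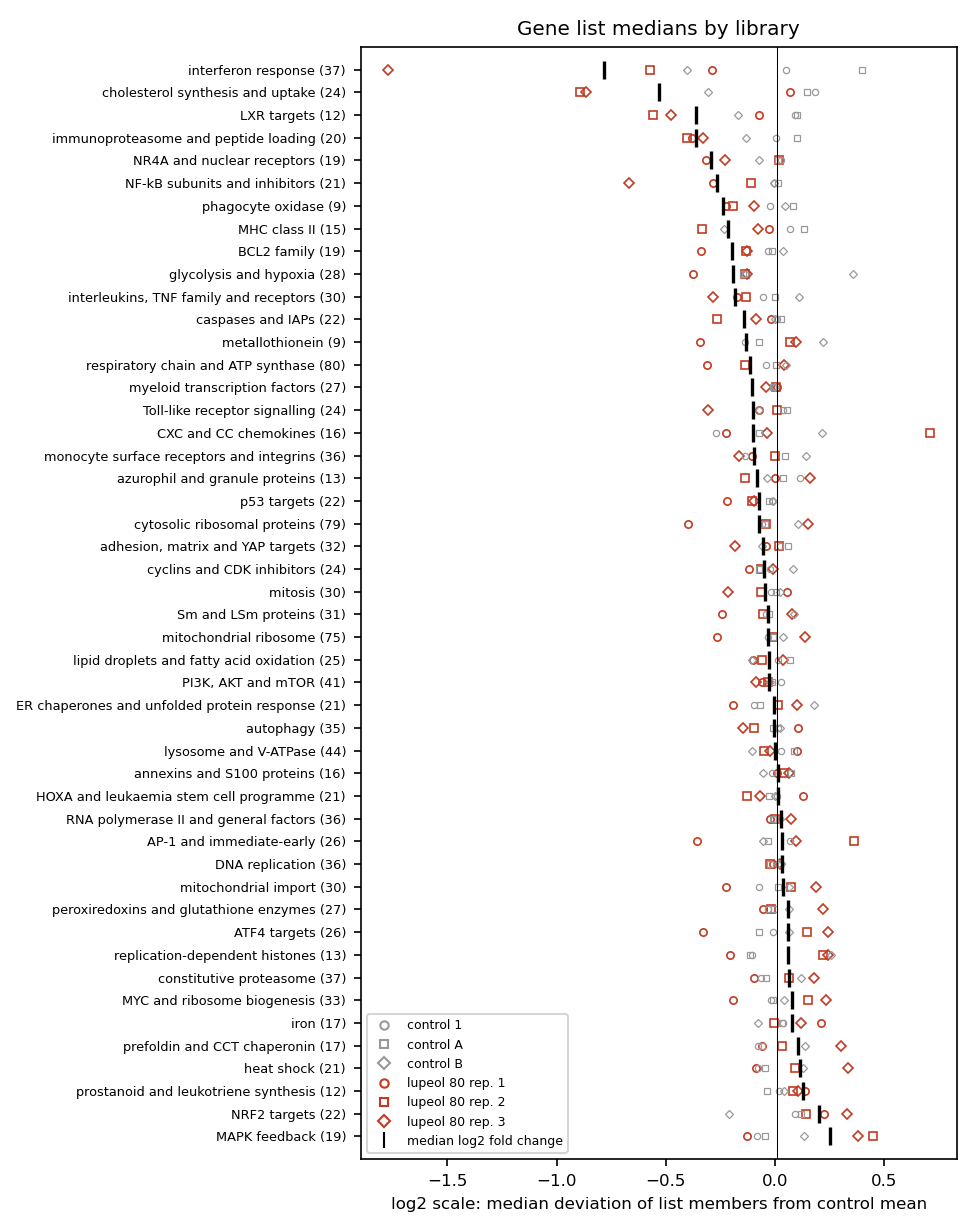
For each gene list, with the number of tested members in brackets, open markers give the median log2 deviation of its members from the control mean in each library, and the black bar gives the median log2 fold change of lupeol 80 over control. The interferon response list has the lowest bar, at -0.78, with its 3 lupeol 80 libraries at -0.29, -0.57 and -1.77, and the thin vertical line marks the median of all tested genes.

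The 250 bases before the annotated start of 5 of these genes are shown because CXCL2 and TAP1 moved in opposite directions while each holds an NF-kB-type motif at nearly the same distance from its start, because PSMB10 and TAP1 hold interferon-response-type motifs, and because the promoters of the inducible genes PTGS2 and DUSP1 hold a TATA motif. Capitals mark every match, on either strand, to the motifs searched, which were TGACGTCA (CRE), TGANTCA (AP-1), GGANTTNCC (NF-kB type), AAANNGAAA (interferon response type), TCACNCCAC (sterol response type), TGACNNNGC (antioxidant response type) and TATAAA. The sequences are RefSeq's for GRCh38.p14, 5′ to 3′ on the strand of the gene, all 5 genes being found there by symbol.
CXCL2: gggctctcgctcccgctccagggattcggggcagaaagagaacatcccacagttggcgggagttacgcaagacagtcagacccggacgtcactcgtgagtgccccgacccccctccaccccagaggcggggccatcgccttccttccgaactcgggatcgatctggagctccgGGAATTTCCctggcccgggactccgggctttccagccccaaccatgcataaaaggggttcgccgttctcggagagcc
TAP1: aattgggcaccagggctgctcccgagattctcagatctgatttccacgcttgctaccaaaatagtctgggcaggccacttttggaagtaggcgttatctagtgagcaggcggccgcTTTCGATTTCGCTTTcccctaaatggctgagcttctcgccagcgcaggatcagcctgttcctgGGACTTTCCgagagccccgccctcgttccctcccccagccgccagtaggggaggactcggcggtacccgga
PSMB10: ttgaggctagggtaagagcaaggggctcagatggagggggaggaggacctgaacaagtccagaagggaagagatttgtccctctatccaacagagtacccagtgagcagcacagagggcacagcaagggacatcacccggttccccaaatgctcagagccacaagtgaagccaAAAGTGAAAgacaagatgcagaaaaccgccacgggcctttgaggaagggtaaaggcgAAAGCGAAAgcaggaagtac
PTGS2: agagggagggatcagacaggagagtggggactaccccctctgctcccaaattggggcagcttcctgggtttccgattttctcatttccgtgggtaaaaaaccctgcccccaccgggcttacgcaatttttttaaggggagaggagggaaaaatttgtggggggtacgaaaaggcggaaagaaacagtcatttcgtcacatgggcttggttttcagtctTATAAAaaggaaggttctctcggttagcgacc
DUSP1: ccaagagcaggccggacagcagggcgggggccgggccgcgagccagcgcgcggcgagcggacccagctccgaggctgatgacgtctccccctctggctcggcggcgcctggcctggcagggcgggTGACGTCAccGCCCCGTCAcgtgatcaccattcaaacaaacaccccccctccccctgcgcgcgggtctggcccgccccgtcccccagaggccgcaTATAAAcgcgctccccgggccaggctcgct
The stretch before CXCL2 lies at chr4:74099196-74099445, that before TAP1 at chr6:32853705-32853954, that before PSMB10 at chr16:67936851-67937100, that before PTGS2 at chr1:186680424-186680673 and that before DUSP1 at chr5:172771196-172771445. In CXCL2 the match GGAATTTCC starts 77 bases before the start, and in TAP1 GGACTTTCC starts 71 bases before it. TAP1 also holds the overlapping matches TTTCGATTT and TTTCGCTTT, which read as the interferon-response type on the other strand, at 134 and 128 bases. PSMB10 holds AAAGTGAAA at 77 and AAAGCGAAA at 20 bases. The interferon response type also matched in the 250 bases before ANXA1 and CCN2, which rose. It did not match in those before PSMB9 and IRF5, which fell. The PSMB9 stretch, chr6:32853942-32854191, meets the far end of the TAP1 stretch. The TAP1 matches therefore lie upstream of the PSMB9 stretch, outside the bases searched for PSMB9. DUSP1 holds the palindrome TGACGTCA at 125 bases, a match to the antioxidant response type at 115 and TATAAA at 30, and PTGS2 holds TATAAA at 32. Among promoters found by symbol, TATAAA occurred in 7 of 38 of the genes that rose, or 18.4%, in 8 of 121 of those that fell, or 6.61%, and in 676 of 11795 tested genes, or 5.73%. The NF-kB type occurred in 2.63% of those that rose, 5.79% of those that fell and 3.95% of all tested. The interferon response type occurred in 13.2%, 9.09% and 6.39% of the same sets, and CRE in 5.26%, 3.31% and 2.71%. The antioxidant response type occurred in 13.2%, 14.05% and 12.04% of them, AP-1 in 5.26%, 3.31% and 3.99%, and the sterol response type in 2.63%, 2.48% and 0.882%. These are matches to letters in a window and are a description.

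Among nuclear genes of the respiratory chain and ATP synthase, 4 fell and none rose. COX6A1, a nuclear-encoded subunit of cytochrome c oxidase, was at 23.5, 24.6 and 25.3 CPM in the controls and 11.5, 13.6 and 13.7 CPM after lupeol 80. Both groups had narrow spreads, and the log2 fold change was -0.92 ± 0.16 SE (edgeR adjusted p = 0.0172, and 0.0395 with the GC trend removed). At 40.8% its transcripts are among the few of low GC that fell. COX8A, a further subunit of that enzyme, was at 80.14, 74.7 and 77.7 CPM and 42.2, 51.3 and 54.7 CPM (log2 fold change -0.65 ± 0.14 SE, edgeR adjusted p = 0.0316). NDUFA1, of complex I, was at 40.2, 42.2 and 43.2 CPM and 18.4, 22.9 and 29.8 CPM (log2 fold change -0.82 ± 0.17 SE, edgeR adjusted p = 0.0351). ATP5MF, of the ATP synthase, was at 58.5, 53.03 and 56.02 CPM and 26.7, 39.1 and 38.9 CPM (log2 fold change -0.68 ± 0.16 SE, edgeR adjusted p = 0.0455). Its span overlaps that of CPSF4 on the other strand and that of PTCD1 on the same strand. In NDUFA1 and ATP5MF, as in COX6A1, lupeol 80 replicate 1 was the lowest library. These 4 were the called genes among 80 respiratory chain and ATP synthase genes, of which 52 lay below control and 28 wholly below, with a median log2 fold change of -0.11. Over all tested genes 0.854% fell, 48.9% lay below control and 12.9% wholly below. By complex the median was -0.12 over 38 genes of complex I, 0.02 over 4 of complex II, -0.29 over 9 of complex III, -0.23 over 11 of complex IV and -0.05 over 17 of the ATP synthase. Replicate 1 was the lowest of the 6 libraries in 55 of the 80, its list median being -0.31 beside 0.04 in replicate 3, and without replicate 1 the list's median was -0.06, without control B -0.07 and without replicate 3 -0.19. The genes of the mitochondrial genome carry no reads in this table, so that part of the chain was not analysed here.

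PFDN6, a subunit of prefoldin, which delivers unfolded actin and tubulin to the CCT chaperonin, was at 56.1, 56.8 and 52.1 CPM in the controls and 17.01, 26.4 and 28.3 CPM after lupeol 80. Its 3 controls lay within 5 CPM of each other, and it fell by 1.20 ± 0.17 on the log2 scale (edgeR adjusted p = 0.0122, and 0.0167 with the GC trend removed). It stood alone in its list, since the other 16 prefoldin and CCT genes were not called and the list's median was 0.11 (range 0.01 to 0.18, the lowest without replicate 3 and the highest without control B, and 0.05 without control 1 and 0.04 without control A). The annotated span of PFDN6 overlaps that of RGL2 on the other strand, which averaged 52.4 CPM with a log2 fold change of -0.36. EDF1, a transcriptional coactivator that also binds stalled ribosomes, was at 169, 175 and 166 CPM and 61.4, 95.9 and 102 CPM (log2 fold change -0.98 ± 0.17 SE, edgeR adjusted p = 0.0176, and 0.0395 with the GC trend removed). In both genes replicate 1 was the lowest, and replicates 2 and 3 lay close together. RPL36AL, a ribosomal protein gene outside the naming rule and chosen after its values were seen, was at 97.1, 89.99 and 90.9 CPM and 44.8, 54.4 and 64.9 CPM (log2 fold change -0.76 ± 0.13 SE, edgeR adjusted p = 0.0172, and 0.0395 with the GC trend removed). It has a close relative in RPL36A, with which reads could be shared. Among the 79 tested cytosolic ribosomal protein genes of the list edgeR called none, while DESeq2 called 7 and limma-voom 1. In edgeR 17 of the 79 had an unadjusted p under 0.05, beside 19.5% of all tested genes. The list had a median of -0.07 in all and of -0.40 in replicate 1, and the median without replicate 1 was 0.05. RPS2 was at 2164 ± 88.7 CPM in the controls and 1602 ± 407 CPM after lupeol 80 (mean ± SD, n = 3 each), and RPLP0 at 1822 ± 186 CPM and 1880.1 ± 167 CPM. SNRNP70, a U1 snRNP protein, was the 1 called gene of 31 in the list of Sm and LSm genes (log2 fold change -0.60 ± 0.13 SE, edgeR adjusted p = 0.0361). It is not itself an Sm or LSm protein. The list's median was -0.03 (range -0.12 to 0.01).

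Other genes passed in both fits on the way down and are named after their values were seen, unless the naming rule took them. CD82, a tetraspanin of the plasma membrane, was at 118, 133 and 114 CPM in the controls and 62.2, 80.06 and 62.6 CPM after lupeol 80 (log2 fold change -0.84 ± 0.14 SE, edgeR adjusted p = 0.0172, and 0.0424 with the GC trend removed). FOXD1, a forkhead transcription factor, was at 222, 212 and 173 CPM and 90.01, 121 and 132 CPM (log2 fold change -0.82 ± 0.15 SE, edgeR adjusted p = 0.0234, and 0.0457 with the GC trend removed). In both genes the groups did not overlap, as in all 201 called genes. PLEKHO1, which the rule took, fell by 0.87 on the log2 scale (edgeR adjusted p = 0.0172, and 0.0455 with the GC trend removed), and OGFR, likewise, fell by 0.85 (edgeR adjusted p = 0.0172 and 0.0455). DRAP1, a corepressor of general transcription, fell by 0.85 (edgeR adjusted p = 0.0176 and 0.0424), and CD2BP2, a spliceosomal protein, fell by 0.74 (edgeR adjusted p = 0.0172 and 0.0455). Also among the 14 was ENSG00000288851, which has no symbol, lies on chromosome 6 and fell by 1.15 (edgeR adjusted p = 0.0122 and 0.0167). It has no GC value, so that fit applied no GC term to it.

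**Figure D5:**
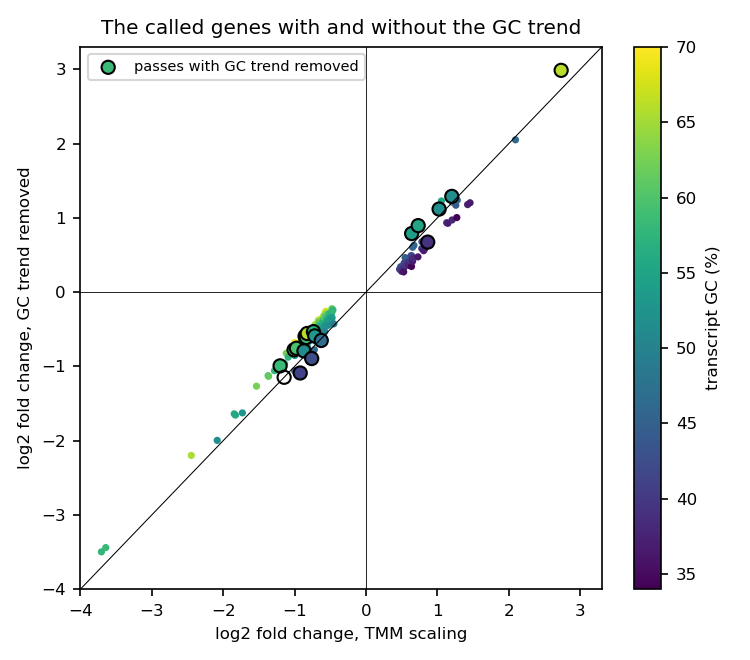
Each point is 1 of the 201 called genes, with its log2 fold change under TMM scaling on the horizontal axis and with the GC trend of each library removed on the vertical axis, coloured by transcript GC. All 201 keep their sign, the 20 ringed genes pass in both fits, and the ringed point without fill has no GC value.

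Sterol metabolism stood lower in 2 of the 3 treated libraries. FDPS, farnesyl diphosphate synthase of the mevalonate pathway, was at 94.1, 97.9 and 81.8 CPM in the controls and 60.4, 62.4 and 58.9 CPM after lupeol 80 (log2 fold change -0.59 ± 0.13 SE, edgeR adjusted p = 0.0383). It was the 1 called gene of 24 cholesterol synthesis and uptake genes. All 24 had a negative log2 fold change, as had 48.9% of all tested genes, and the median of the 24 was -0.53. The list's medians were 0.07, -0.89 and -0.87 in lupeol 80 replicates 1, 2 and 3 and 0.18, 0.15 and -0.31 in controls 1, A and B, so replicate 1 lay among the controls. Without replicate 1 the median was -0.94 and without replicate 2 or replicate 3 it was -0.37. The number of genes below control was 19 of 24 without replicate 2, 21 without replicate 3 and 23 without control A. PLTP, the phospholipid transfer protein and an LXR target, was at 55.1, 56.6 and 51.7 CPM and 38.1, 36.7 and 29.4 CPM (log2 fold change -0.65 ± 0.15 SE, edgeR adjusted p = 0.0432), and was the 1 called gene of 12 LXR targets, whose median was -0.36 (range -0.56 to -0.25, the lowest without replicate 1, whose own median was -0.08). Its span overlaps that of CTSA on the other strand. PLIN2, the coat protein of lipid droplets, was at 159 ± 47.9 CPM in the controls and 275 ± 101 CPM after lupeol 80 (mean ± SD, n = 3 each) and did not pass (edgeR adjusted p = 0.481).

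BBC3 and BAK1, pro-apoptotic members of the BCL2 family, fell. BBC3, the BH3-only protein PUMA, was at 9.92, 8.52 and 8.75 CPM in the controls and 4.66, 4.898 and 3.996 CPM after lupeol 80 (log2 fold change -1.002 ± 0.19 SE, edgeR adjusted p = 0.0234). BAK1, a pore-forming effector of the mitochondrial outer membrane, was at 100.4, 108 and 109 CPM and 70.6, 76.8 and 81.8 CPM (log2 fold change -0.47 ± 0.11 SE, edgeR adjusted p = 0.0463). Neither passed with the GC trend removed, where the adjusted p was 0.181 and 0.335. The list of 19 had a median of -0.20 (range -0.24 to -0.13, and -0.13 without replicate 1 or control B), or -0.09 with the GC trend removed. BBC3 was also the 1 called gene of 22 p53 targets, and edgeR called none of 22 caspase and IAP genes, 5 of which had an unadjusted p under 0.05. Cell cycle genes held 1 call. INCENP, of the chromosomal passenger complex, fell by 0.57 ± 0.13 on the log2 scale among 30 mitosis genes, while edgeR called 0 of 36 DNA replication genes and 0 of 24 cyclin and CDK inhibitor genes, with 6 in each list at an unadjusted p under 0.05. DESeq2 called 0 and 1 of them and limma-voom 0 and 0. Of all tested genes 19.5% had an edgeR unadjusted p under 0.05. MCM3 and MCM4, of the replicative helicase, had log2 fold changes of -0.03 and 0.05.

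Of the transcription factors that set myeloid identity, CEBPA and IRF5 fell among 27 tested. CEBPA, a factor of granulocytic and monocytic commitment, was at 349, 332 and 268 CPM in the controls and 160.4, 203 and 182 CPM after lupeol 80 (log2 fold change -0.80 ± 0.15 SE, edgeR adjusted p = 0.0234). IRF5, which drives inflammatory cytokine genes, was at 251, 254 and 212 CPM and 177, 179 and 149 CPM (log2 fold change -0.50 ± 0.12 SE, edgeR adjusted p = 0.0457). Both have GC-rich transcripts, at 65.9% and 57.7%, and neither passed with the GC trend removed. The list's median was -0.10 (range -0.10 to 0.04, positive without replicate 1 or 3), and 0.08 with the GC trend removed. COL9A2, a collagen IX chain, had the largest difference in level among genes that fell, from 1491, 1539 and 1125 CPM in the controls to 719, 712 and 634 CPM after lupeol 80 (log2 fold change -1.01 ± 0.17 SE, edgeR adjusted p = 0.0176). SLC16A3, the lactate exporter MCT4, was at 379, 373 and 425 CPM and 204, 293 and 249.6 CPM (log2 fold change -0.66 ± 0.13 SE, edgeR adjusted p = 0.0274), and its span overlaps that of CSNK1D on the other strand. It was the 1 called gene of 28 glycolysis and hypoxia genes, 24 of which lay below control, beside 48.9% of all tested genes. The list's median was -0.19, although 21 members were highest in control B and the median without that library was -0.05.

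Other genes taken by the naming rule are given by range. TPD52, PTPN22, STK17B, AHI1, RINT1, EIF5A2 and CRLF3 rose by 0.63 to 0.82 on the log2 scale, none passing with the GC trend removed. PLEKHA4, RIMBP3, RAB24, FAM43A, MXD3, DNAL4, FLNA, BAIAP2-DT, BAHCC1 and PROB1 fell by 0.85 to 1.24, again none passing with the GC trend removed. RAB24, a small GTPase, was the 1 called gene of 35 autophagy genes. Its span overlaps that of MXD3 on the same strand, so reads could be shared between these genes. DNAL4 likewise overlaps SUN2, which averaged 199 CPM, on the same strand. PRRC2A, GANAB, TNRC18, LMNB2 and ADGRA2, of high level, fell by 0.49 to 0.71. DOCK8-AS2 rose by 1.28 and ITGB2-AS1 fell by 1.19, but they lie antisense to DOCK8 and ITGB2, which are far more abundant, and are uncertain without the strand. NCF1B fell by 1.05 and is a near-identical copy of NCF1, so its reads could belong to either.

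In edgeR no member was called in the lists of heat shock, ATF4 target, metallothionein, lysosome, mitochondrial ribosome, mitochondrial import, RNA polymerase II, MYC and ribosome biogenesis, histone, PI3K, AKT and mTOR, Toll-like receptor, interleukin, phagocyte oxidase, granule protein, monocyte surface receptor and HOXA genes. Their medians ran from -0.24 for the phagocyte oxidase to 0.11 for heat shock. With the GC trend removed the median was -0.04 for the phagocyte oxidase and 0.10 for heat shock. Over all 23 lists without a call, which hold 696 different tested genes, 167 had an edgeR unadjusted p under 0.05, while DESeq2 called 40 and limma-voom 2. Over all 17568 tested genes 3431, or 19.5%, had such a p, while DESeq2 called 910 and limma-voom 106. HSP90AB1, a cytosolic chaperone, was at 2841 ± 225 CPM in the controls and 3171 ± 352 CPM after lupeol 80 (mean ± SD, n = 3 each). ELANE, neutrophil elastase, was at 1642 ± 376 CPM and 1699 ± 199 CPM. MT2A, a metallothionein, was at 194 ± 25.05 CPM and 113 ± 35.2 CPM, with an edgeR adjusted p of 0.0846. ITGB2, the beta chain of leukocyte integrins, was at 1228 ± 105 CPM and 943 ± 76.5 CPM, with an edgeR adjusted p of 0.0863.

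Set against lupeol at 50 µmol/L in the same fit, lupeol 80 differed in 8 of 17568 genes, or 0.0455%, of which 6 were higher and 2 lower at the larger dose, and 7 also passed against control. These 8 are named because they are so few. XACT was at 2.303, 4.95 and 2.97 CPM in the 3 lupeol 50 libraries, against 17.95, 16.4 and 14.2 CPM at 80, a difference of 2.25 ± 0.26 on the log2 scale (edgeR adjusted p = 0.00137). NR4A2 was at 14.3, 14.9 and 11.3 CPM at 50, a difference of 1.84 ± 0.25 (edgeR adjusted p = 0.0359), and DUSP1 was at 38.02, 50.6 and 41.1 CPM, a difference of 1.09 ± 0.16 (edgeR adjusted p = 0.0299). DSG2 differed by 0.997 ± 0.16 (edgeR adjusted p = 0.0359). For these 4 genes the lupeol 80 libraries stood above every library of both other groups. MIR23AHG, the host transcript of a microRNA cluster, and ENSG00000246250, without a symbol, were higher by 1.32 and 1.92, and both are annotated as antisense. CERCAM, a cell adhesion protein, and SH3BP5L were lower by 0.76 and 0.73 on the log2 scale. The other called genes did not pass between doses, which does not show that the doses act alike. For PSMB10, for example, the difference was -0.49 ± 0.16 (edgeR adjusted p = 0.177). The count of 8 ranged from 1 to 189 when single lupeol libraries were left out, and it was not taken with a control left out. It fell to 1 without lupeol 50 replicate 2 or 3 and to 4 without lupeol 80 replicate 3. It rose to 156 without lupeol 50 replicate 1 and to 189 without lupeol 80 replicate 2.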

How the data were processed

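The members and the gene lists were chosen with earlier results of these data known. Per the file headers the authors deposited 1 table of raw read counts per gene for 67928 genes, with gene lengths. Its 35993 versioned identifiers found in GENCODE 29 have the same coordinates there (GRCh38). The submitters' processing notes name Bowtie 0.12.2 and mm8, a mouse build, which does not match human identifiers. The counter, its strand setting and its treatment of multiply matching reads were not given in the sources used here. All 9 libraries were fitted together in edgeR 4.0.16 (R 4.3.3), a term per group, TMM scaling, filterByExpr (17568 genes), robust quasi-likelihood F test, Benjamini-Hochberg over all tested genes, threshold 0.05. The standard error is the log2 fold change divided by the root of F. CPM are TMM-scaled, and deviations use log2(CPM + 0.5). DESeq2 1.42.0 and limma 3.58.1 were alternatives. GC and length trends were lowess curves (span 0.3) per library, entered as offsets, the fits with GC being added after seeing the data. The test was tried on simulated counts with a fixed spread and no GC gradient. Such counts lack the differences among these libraries and cannot give the test's error rate here. An exact permutation test of 3 against 3 cannot go below 0.1. Named genes had a symbol and separated groups. They were the 20 largest rises and falls and the 10 of highest level, each with a mean of at least 5 CPM. Called list members (up to 6 a list) were added at any mean, and CXCL2 and HLA-F, the latter at 4.02 CPM, averaged less than 5 CPM. A list without a called gene could show its 2 most abundant members. One gene row without values was left out. Some genes that met the naming rule or passed both fits are not reported here.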

Additional observations from a re-analysis of the deposited data

How the results depend on the processing

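All 201 genes kept their sign under each alternative (175 of 175 tested under the stricter filter). Against 201 calls, 51 higher and 150 lower, DESeq2 gave 910 (283 and 627), no filter on low counts 861 (248 and 613), and leaving out both control B and lupeol 80 replicate 1 gave 860 (385 and 475). Fewer came from limma-voom, 106 (18 and 88), a stricter filter of 5 CPM on average, 124 (32 and 92), the 6 libraries alone, 78 (16 and 62), the GC trend removed, 20 (6 and 14), GC and length trends removed, 29 (8 and 21), and control A and B summed, 1 (0 and 1). In that summed fit the columns counted as 1 sample. The length trend removed gave 279 (86 and 193), RLE factors 172 (44 and 128) and no scaling factors 166 (64 and 102). Leaving out 1 library gave 0 to 386 calls, 0 to 105 higher and 0 to 281 lower. Between doses, leaving out 1 lupeol library gave 1 to 189 calls. Removing the GC trend, and dropping lupeol 50 libraries, were added after seeing the data. The cause of these differences was not tested. The median GC of the genes that rose, 40.2%, was 52.9% over the 6 called with the GC trend removed and 54.7% over the 8 called with GC and length trends removed. Separation was 4230 genes with RLE and 4260 without scaling factors. The biological coefficient of variation was 0.178 with 3 libraries a group, and 26 called genes had a mean under 5 CPM. No paired analysis was possible because replicate numbers follow accession order, or a shared heading, and pair no libraries.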
